A study of Haematococcus lacustris with 7 samples.

Results

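The antioxidant and redox homeostasis sequences of the green alga Haematococcus pluvialis (named Haematococcus lacustris in the labels) were taken from a Gene Ontology (GO) annotation of its assembled transcriptome. A sequence was included when the name of at least 1 of its GO terms held one of 11 words or phrases: oxidative stress, reactive oxygen, hydrogen peroxide, superoxide, peroxidase activity, peroxiredoxin, catalase activity, glutathione, thioredoxin, cell redox homeostasis or ascorbate. This gave 158 of the 6812 annotated sequences (2.32%), and the remaining 6654 are called the other annotated sequences. The study sequenced 7 libraries. In 3 of them the cells had received 25 mg/L of jasmonic acid (JA) for 1, 6 or 24 h, in another 3 they had received 25 mg/L of salicylic acid (SA) for 1, 6 or 24 h, and the last came from the untreated control. Each condition had 1 library, so there was no spread between replicates. The annotation names no library and gives no value for any one of them, so whether JA, SA and control cells differed in these sequences was not analysed here. The values below are counts of annotated sequences, not expression levels. Functions and locations are those of the GO terms, which came from Blastp matches to known proteins, and none was measured in these cells.

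Reactive oxygen species form wherever electrons leak to oxygen, above all in the photosynthetic and respiratory chains. Superoxide dismutases turn superoxide into hydrogen peroxide, which catalases, heme peroxidases, glutathione peroxidases and peroxiredoxins then remove. The last of these enzymes are kept reduced by thioredoxin or glutathione, which reductases recharge with electrons from NADPH. In H. pluvialis such stress is known to accompany the accumulation of astaxanthin, a red carotenoid with antioxidant properties.

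The 11 words matched 43 distinct term names, of which 22 were molecular functions and 21 biological processes. Cell redox homeostasis, the general term for keeping thiols and disulfides in balance, was the most frequent at 72 sequences, and 44 of these were included by that phrase alone. Response to oxidative stress followed with 31 sequences, then superoxide dismutase activity with 17, peroxidase activity with 16, superoxide metabolic process with 15 and peroxiredoxin activity with 13. A molecular function among the matched terms was found for 76 members, and the other 82 were included through process terms only. A single matched term was carried by 90 members, whereas 68 carried 2 or more. The word ascorbate brought in 1 sequence, and L-ascorbate peroxidase activity was listed for 0 sequences in the table used here.

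Several enzyme terms were listed with the same partner term in all of their sequences, and others in only part of them. Cell redox homeostasis, for example, was on 6 of the 8 sequences with thioredoxin-disulfide reductase activity. All 13 sequences with peroxiredoxin activity also carried peroxidase activity and cell redox homeostasis. Hydrogen peroxide catabolic process accompanied catalase activity in 6 of 6 sequences, and superoxide metabolic process accompanied superoxide dismutase activity in 15 of 17. Response to oxidative stress was listed beside glutathione peroxidase activity in 5 of 5 sequences and beside cytochrome-c peroxidase activity in 3 of 3. Cell redox homeostasis and response to oxidative stress, the most frequent terms, stood together on 2 sequences. Terms of one sequence are assigned together, so these pairs are not independent observations.

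**Figure D1:**
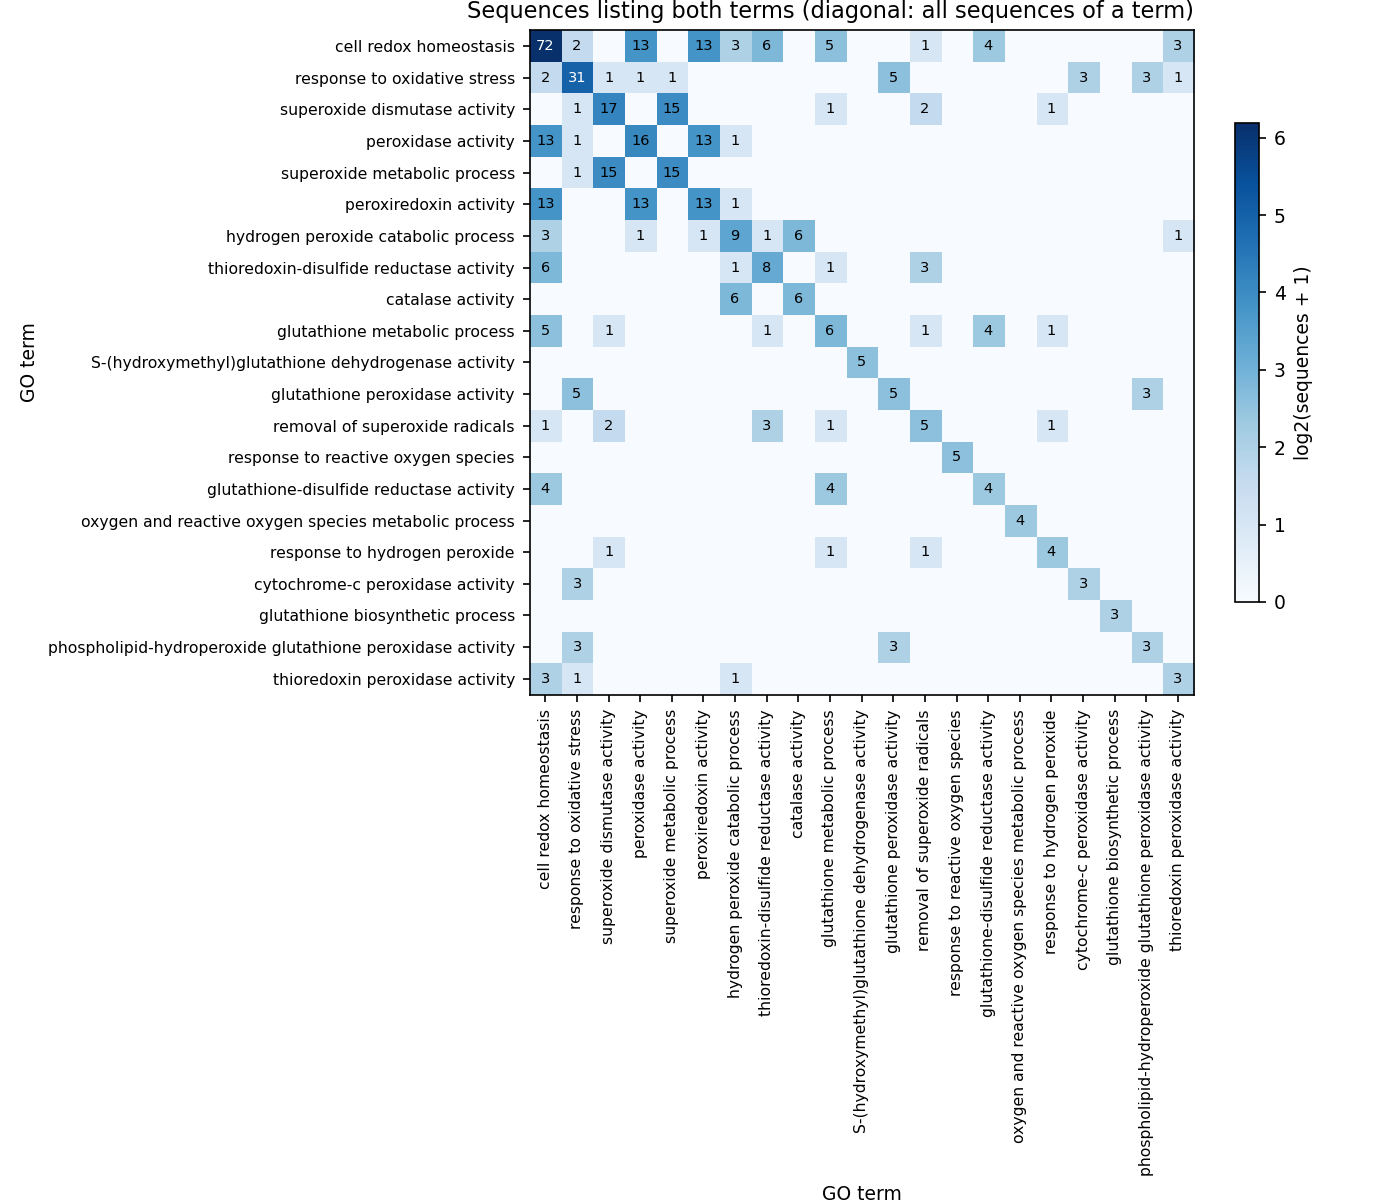
Number of sequences that carried both terms of each pair, for matched GO terms on 3 or more sequences. Both axes list the terms, shading follows log2 of the count plus 1, the diagonal gives all sequences of a term and an empty cell stands for 0. Peroxiredoxin activity shared all 13 of its sequences with cell redox homeostasis, which met response to oxidative stress in 2.

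Each member was assigned to 1 of 17 families by its term names, compared with an ordered list of patterns in which the first match counted. The label response or regulation terms only leaves aside terms outside the rule, so sequences under it could carry other enzyme activities. Superoxide and peroxide removal by superoxide dismutases, catalases and heme peroxidases accounted for 27 members (17.1%), and thiol peroxidases, counted with 16 peroxiredoxins and 5 glutathione peroxidases, for 21 (13.3%). Disulfide reductases numbered 12 (7.59%) and other glutathione enzymes 17 (10.8%). Proteins annotated to redox homeostasis without one of these activities were the largest group at 45 (28.5%), ahead of 35 sequences with response or regulation terms only (22.2%). The single ascorbate enzyme completed the set.

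**Figure D2:**
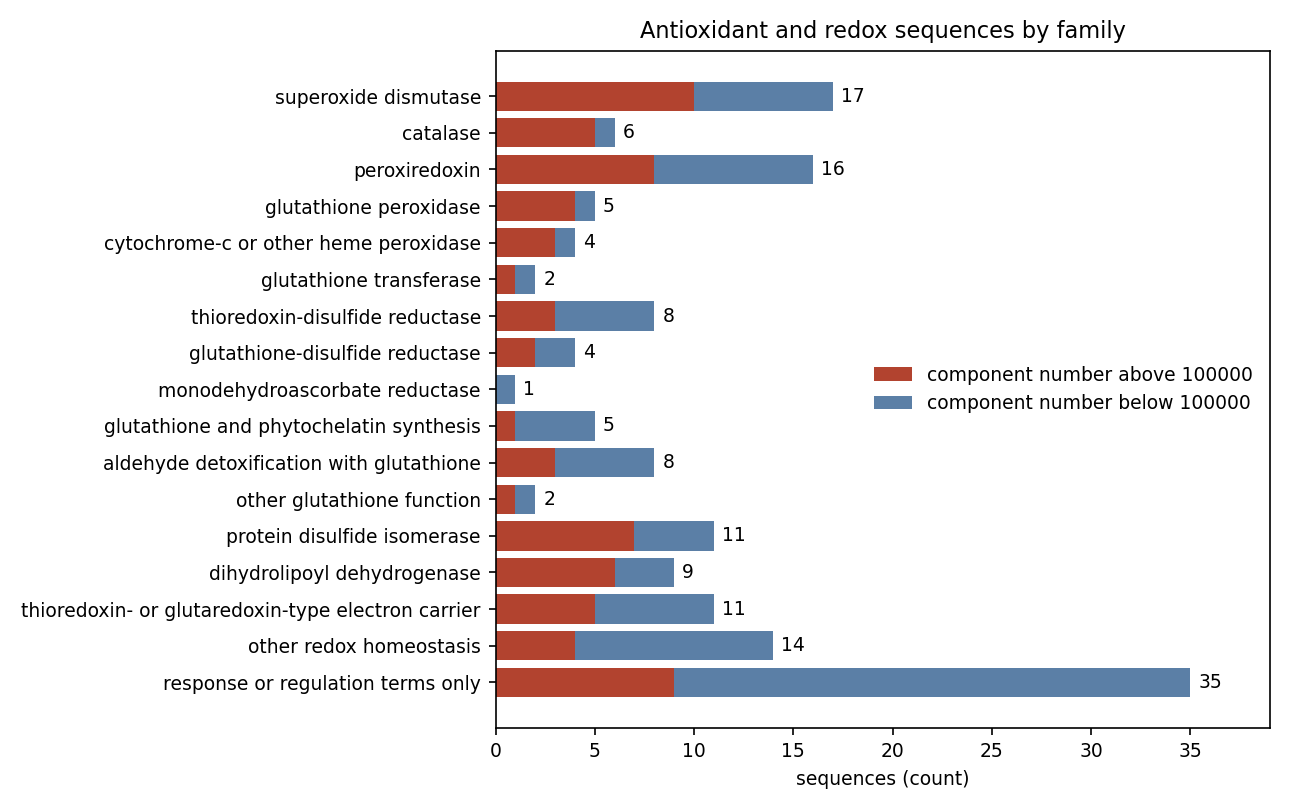
Number of sequences in each of the 17 families, with bars split by whether the number of the assembly component was above or below 100000. Sequences with response or regulation terms only were the largest family at 35, of which 9 were above and 26 below that number, while 5 of the 6 catalases were above it.

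Superoxide dismutase, the first enzyme to act on superoxide, was the largest enzyme family with 17 sequences from 17 components. Metal ion binding was listed for 14 of them. The others were comp1322817_c0_seq1_2 with manganese ion binding, comp487196_c0_seq1_15 with copper ion binding and comp56729_c0_seq2_33 with manganese ion binding. The mitochondrial matrix was listed for 4 sequences, including comp13042_c0_seq1_11 and comp62637_c1_seq1_7, and the cytoplasm for another 4. Only comp830951_c0_seq1_8 of this family carried plastid terms, chloroplast stroma and thylakoid, beside responses to iron and copper ions. No cellular component term was listed for 7, and comp1322817_c0_seq1_2 carried only the root term of that domain, which names no location. The sequence with the most matched terms of all members was comp56729_c0_seq2_33, with 8 among its 45 terms. Many of those 45 describe animals, such as heart development and liver development.

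Catalase, the heme enzyme that splits hydrogen peroxide, was annotated in 6 sequences. All 6 carried heme binding and oxidation reduction. Peroxisomal terms were listed for comp1384496_c0_seq1_1 and comp60575_c2_seq1_40, the second as the glyoxysome. The bacterial compartment term periplasmic space stood beside comp868151_c0_seq1_5. The remaining sequences, comp1014443_c0_seq1_1, comp1458518_c0_seq1_1 and comp463510_c0_seq1_4, shared one annotation with no location. Of 4 other heme peroxidases, comp338975_c0_seq1_11, comp59930_c0_seq1_31 and comp878769_c0_seq1_6 were cytochrome-c peroxidases, which use the respiratory electron carrier to reduce hydrogen peroxide, and all 3 were placed in the mitochondrial matrix. The fourth, comp1163745_c0_seq1_5, carried peroxidase activity and heme binding without a location.

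The peroxiredoxins, thiol enzymes that reduce hydrogen and organic peroxides, numbered 16 in 15 components, 13 by peroxiredoxin activity and 3 by thioredoxin peroxidase activity. Plastid terms were listed for 4: comp53851_c1_seq1_15 in the chloroplast thylakoid, comp56850_c0_seq1_6 in the chloroplast stroma, and comp60034_c1_seq2_7 and comp60034_c1_seq4_7 in both thylakoid and stroma. The last 3 also carried defense response to bacterium. Mitochondrion was listed for 3, and of these comp480961_c0_seq1_4 and comp51090_c0_seq1_3 carried peroxisome as well. No location was listed for 5. The thioredoxin peroxidase comp55461_c0_seq1_11 had 5 matched terms and comp1104710_c0_seq1_3 had 4, and both also carried mammalian terms such as response to lipopolysaccharide.

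Glutathione peroxidases, which reduce peroxides at the expense of glutathione, numbered 5, and 3 of these carried the phospholipid-hydroperoxide activity that acts on oxidised membrane lipids. The chloroplast stroma was listed for comp1302376_c0_seq1_5. Chloroplast, mitochondrion, cytosol and plasma membrane were all listed for comp384929_c0_seq1_2, with responses to cadmium ion and salt stress. Nucleus and cytoplasm were listed for comp62410_c0_seq1_5, and neither comp1080383_c0_seq1_3 nor comp614122_c0_seq1_2 had a location.

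Thioredoxin-disulfide reductase, the NADPH-dependent enzyme that recharges thioredoxin, was annotated in 8 sequences, and 6 of them also carried cell redox homeostasis. Removal of superoxide radicals was listed for 3. The most fully annotated towards a plant protein was comp58844_c0_seq1_9, with 4 matched terms, the chloroplast envelope, the mitochondrion and the cytosol, and pollen germination. By contrast, spermatogenesis was listed for comp9147_c0_seq1_2 and mesoderm formation for comp61976_c0_seq1_41 and comp841901_c0_seq1_12. Glutathione-disulfide reductase, which recharges glutathione, was annotated in 4 sequences, all with glutathione metabolic process. These were comp64275_c0_seq1_44 in the mitochondrion and chloroplast stroma, comp65232_c0_seq31_40 in the chloroplast, and comp693037_c0_seq1_2 and comp817973_c0_seq1_3 in the cytoplasm. Monodehydroascorbate reductase, which returns oxidised ascorbate to its reduced form, was annotated in comp63422_c2_seq1_14 with FAD binding and a cytoplasmic location.

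Both steps of glutathione synthesis were annotated. Glutamate-cysteine ligase, the first enzyme, was annotated in comp57095_c0_seq1_37, placed in the chloroplast, and in comp1467762_c0_seq1_3. Glutathione synthase, the second, was annotated in comp63491_c1_seq1_19. Phytochelatin synthase, which joins glutathione units into metal-binding peptides, was found in comp61483_c0_seq8_60 and comp61483_c0_seq12_28 of one component, both with response to metal ion. Glutathione transferase activity, the conjugation of glutathione to other compounds, was listed for comp10082_c0_seq1_4 and comp421567_c0_seq1_2, both also with peroxidase activity. A further 8 sequences belonged to detoxification of aldehydes with glutathione. Of these, 5 carried S-(hydroxymethyl)glutathione dehydrogenase, the formaldehyde-oxidising enzyme. Among those 5, comp1673510_c0_seq1_1 and comp30431_c0_seq1_3 carried the term peroxisome and also S-nitrosoglutathione reductase activity. The others of the 8 were the S-formylglutathione hydrolase comp57076_c0_seq1_18, and comp62600_c2_seq2_36 and comp59554_c0_seq2_5, annotated to the successive glyoxalase steps that clear methylglyoxal. Beta-lactamase activity and antibiotic catabolic process were also listed for comp59554_c0_seq2_5. Adenylyl-sulfate reductase, which uses glutathione in sulfate assimilation, was annotated in comp56590_c0_seq1_11 with the term chloroplast. A glutathione conjugate exporter was annotated in comp1372923_c0_seq1_5 with the term vacuolar membrane.

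Among proteins annotated to redox homeostasis, protein disulfide isomerases, which form and rearrange disulfide bonds in secreted proteins, numbered 11 and were placed in the endoplasmic reticulum lumen in 11 of 11 cases. Dihydrolipoyl dehydrogenase, the shared flavin subunit of mitochondrial and plastid dehydrogenase complexes, was annotated in 9 sequences, 6 with mitochondrial terms. Of these, comp806551_c0_seq1_4 and comp852360_c0_seq1_16 were listed in the glycine cleavage complex, and comp1020928_c0_seq1_2 also carried chloroplast. The other 3 carried cytoplasm and glycolysis, with no mitochondrial or plastid term. Electron carriers with protein disulfide oxidoreductase activity, the annotation of thioredoxin and glutaredoxin proteins, numbered 11. Chloroplast was listed for comp56339_c1_seq2_13, comp57130_c0_seq2_4 and comp58590_c0_seq1_8, and the mitochondrial matrix with iron-sulfur cluster assembly for comp1006802_c0_seq1_4. All 11 protein disulfide isomerase and all 9 dihydrolipoyl dehydrogenase annotations in the whole table fell among the members. Each of these sequences was included through cell redox homeostasis, so this reflects the selection. The last 14 sequences were mixed. They included comp57131_c0_seq3_19 and comp57978_c0_seq2_21, listed in the dynein complex and flagellum, and comp65433_c0_seq2_6 and comp65433_c0_seq6_5, annotated to copper transport and assembly of respiratory complex IV.

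The 35 sequences with response or regulation terms only were proteins of many functions. Response to oxidative stress was the only matched term for 19. These included a cyclophilin with chloroplast terms (comp1385131_c0_seq1_2), a ferrochelatase that makes heme (comp16547_c0_seq1_8) and a fumarase (comp57240_c0_seq2_34). A DNA glycosylase of base-excision repair (comp54701_c0_seq4_29 and comp54701_c0_seq5_23) was also among them. Soluble guanylate cyclase, which makes cGMP, accounted for 4 sequences with one shared annotation, of 5 guanylate cyclases in the table. The term oxygen and reactive oxygen species metabolic process, listed for 4 sequences, brought in the photorespiratory serine hydroxymethyltransferases comp1473402_c0_seq1_2 and comp591479_c0_seq1_3, which are 2 of 13 sequences with that activity. The ferroxidase comp58643_c0_seq1_12 and the mitochondrial uncoupler comp63487_c2_seq1_63 were also in this group. For several such proteins the rule held a minority of the sequences with the activity: 1 of 8 fumarases, 1 of 4 ferrochelatases and 3 of 7 MAP kinase kinase kinases.

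Mitochondrial location terms were listed for 40 of the 158 antioxidant and redox sequences (25.3%, 95% exact Clopper-Pearson interval 18.7 to 32.8%), against 730 of the 6654 other annotated sequences (11.0%). Of the 35 sequences with response or regulation terms only, 17 (48.6%) carried mitochondrial terms. Without those 35 the share of members was 23 of 123 (18.7%). Plastid terms were listed for 23 members (14.6%, interval 9.46 to 21.0%) and for 722 of the others (10.9%), a value inside the interval of the members. Endoplasmic reticulum terms were listed for 15 members (9.49%) and 237 others (3.56%), and 11 of those 15 were the protein disulfide isomerases. Peroxisomal terms were listed for 6 members (3.80%) and 63 others (0.947%). Extracellular or cell wall terms were listed for 14 members (8.86%) and 166 others (2.49%). Nuclear terms ran the other way, with 12 members (7.59%) and 1174 others (17.6%). Both plastid and mitochondrion were listed for 9 members. Sequences are not replicates and share matched proteins, so these intervals cover counting error only, and no test was made.

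**Figure D3:**
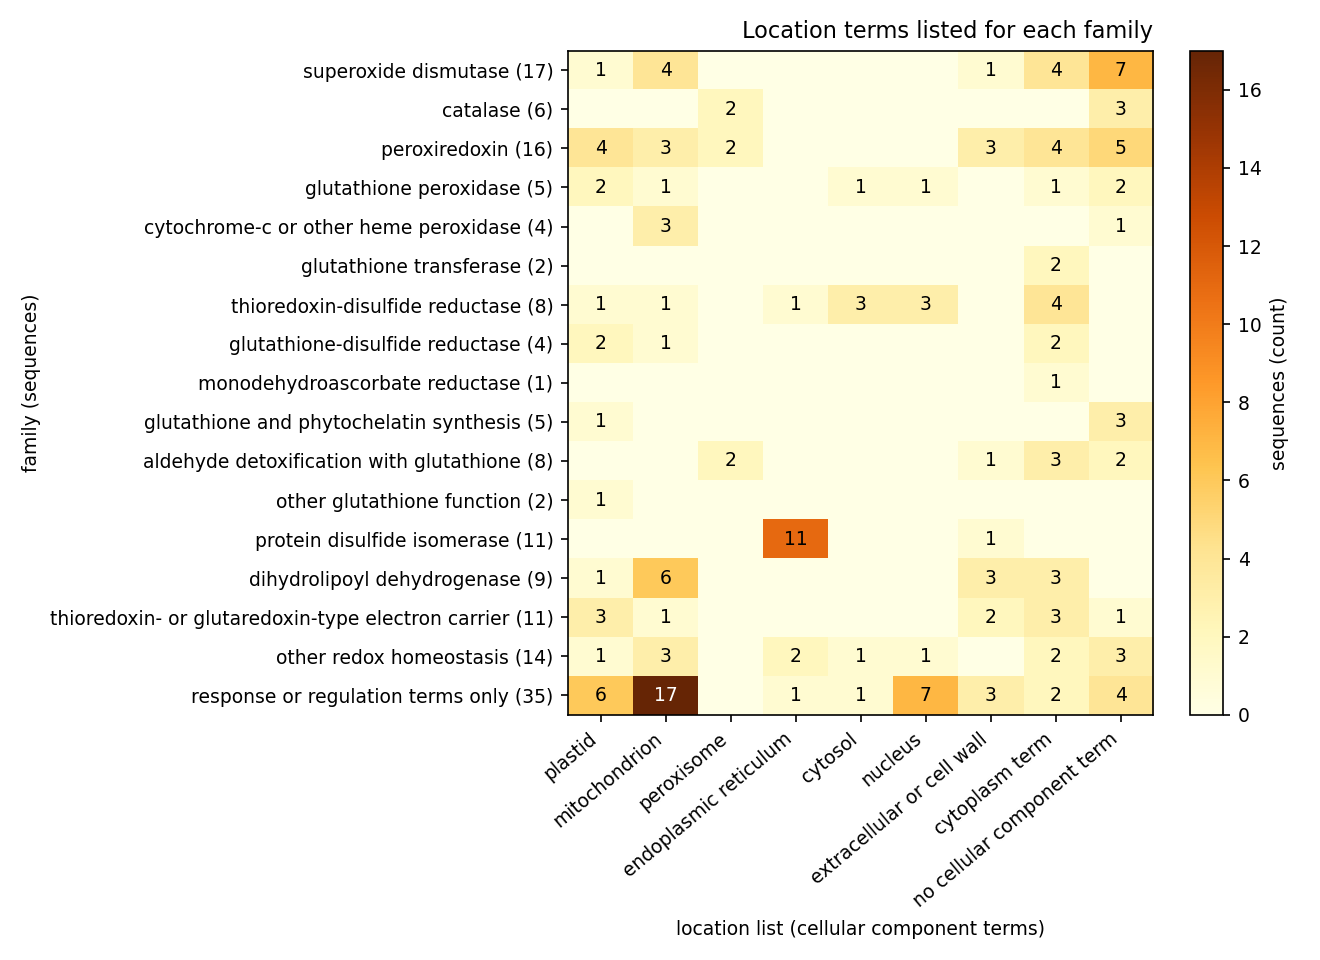
Number of sequences of each family (down the page, with its size in brackets) for which location terms of each compartment (along the axis) were listed. Each cell gives a count of sequences, an empty cell stands for 0, and a sequence may count in several columns. The densest cells are the mitochondrion for sequences with response or regulation terms only, at 17 of 35, and the endoplasmic reticulum for protein disulfide isomerases, at 11 of 11.

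Oxidation reduction was the most frequent term that the rule did not use, listed for 84 members (53.2%) and 569 others (8.55%). It was carried by 16 of 17 superoxide dismutases, 6 of 6 catalases and 16 of 16 peroxiredoxins, but by 0 of 11 protein disulfide isomerases. The rule selects many such enzymes by the names of their activities, so this contrast reflects the selection in part. FAD binding, the binding of a flavin cofactor, was listed for 24 members (15.2%) and 85 others (1.28%). These members included 8 thioredoxin-disulfide reductases, 4 glutathione-disulfide reductases and 9 dihydrolipoyl dehydrogenases. The rule selects these enzymes, so the FAD contrast also reflects the selection in part. Heme or iron terms were listed for 23 members (14.6%) and 170 others (2.55%). Heme binding was on all 6 catalases and 4 heme peroxidases that the rule selects, so this contrast also reflects the selection in part. Copper, zinc or manganese terms were listed for 24 members (15.2%) and 438 others (6.58%). ATP binding was less frequent, with 14 members (8.86%) and 1903 others (28.6%). Responses to metal, salt, heat or cold were listed for 19 members (12.0%) and 173 others (2.60%). Defence terms were listed for 7 members (4.43%) and 36 others (0.541%), with 2 sequences each from components comp60034_c1 and comp64371_c0. Apoptosis or cell death terms, among them anti-apoptosis on 3 members, were listed for 9 members (5.70%) and 64 others (0.962%). Electron transport terms were listed for 22 members (13.9%) and 238 others (3.58%), and membrane terms for 28 members (17.7%) and 1449 others (21.8%). Protein disulfide terms were listed for 24 members and 0 others. They were carried by the 11 isomerases and 11 electron carriers above and by the thioredoxin-disulfide reductases comp9147_c0_seq1_2 and comp61976_c0_seq1_41. All of these sequences also carried cell redox homeostasis, a phrase of the rule, so this contrast reflects the selection. Protein folding was listed for 2 members (1.27%) and 250 others (3.76%), and photosynthesis for 1 member (0.633%) and 168 others (2.52%). Ageing was listed for 1 member (0.633%) and 38 others (0.571%), which are similar shares. Larval, embryonic, locomotion, growth or reproduction terms were listed for 11 members (6.96%) and 276 others (4.15%). Terms on jasmonic or salicylic acid were listed for 0 members and 15 others (0.225%). Carotenoid or other isoprenoid terms, the class to which astaxanthin synthesis belongs, were listed for 0 members and 42 others (0.631%). At shares this low among the others, 0 members cannot be read as a difference for the hormone or the isoprenoid list.

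**Figure D4:**
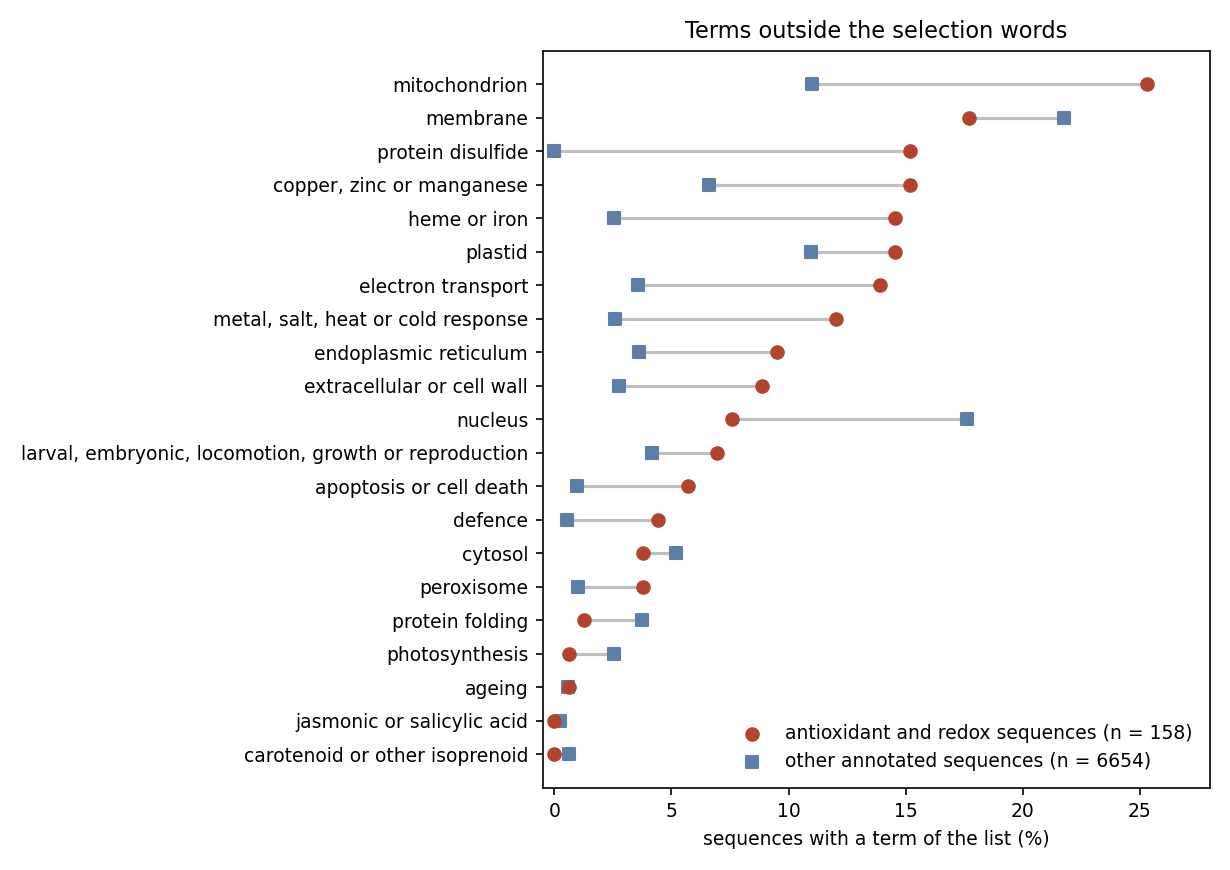
Share of sequences in percent (along the axis) that carried GO terms of each list outside the rule (down the page). Circles are the 158 antioxidant and redox sequences and squares the 6654 other annotated sequences, and location lists here take terms of any GO domain. Heme or iron terms were listed for 14.6% of the members and 2.55% of the others. The rule selects catalases and heme peroxidases, so the heme contrast reflects the selection in part. Jasmonic or salicylic acid terms were listed for 0 members and 0.225% of the others, too low a share for 0 to be read as a difference.

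Sequence names give the number of the assembly component, and 72 members (45.6%, interval 37.6 to 53.7%) had a component number above 100000, against 3357 others (50.5%). By family, catalases were above it in 5 of 6 cases and superoxide dismutases in 10 of 17. Peroxiredoxins were evenly placed with 8 above and 8 below, and sequences with response or regulation terms only were above it in 9 of 35 (25.7%). Mitochondrial terms were listed for 16 of 72 members above 100000 (22.2%), against 429 of 3357 others (12.8%), and for 24 of 86 members below it (27.9%), against 301 of 3297 others (9.13%). Plastid terms were listed for 7 of 72 members above 100000 (9.72%), against 193 of 3357 others (5.75%), and for 16 of 86 members below it (18.6%), against 529 of 3297 others (16.0%), so the share was lower above 100000 in both sets. What the component number stands for in these cells was not tested.

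The 158 sequences came from 148 components. In 10 components 2 sequences were members, with the same full annotation in each pair. In all, the members carried 103 distinct full annotations. One shared annotation was held by 5 superoxide dismutases of separate components and another by 4 peroxiredoxins, comp1100225_c0_seq1_6, comp315327_c0_seq1_6, comp323289_c0_seq1_6 and comp47743_c0_seq1_2. Annotations shared across components covered 81 members (51.3%), against 61.6% of the others. Since a component could give 2 members, counts of sequences are not counts of genes. Whether sequences of separate components with the same annotation come from a single gene was not tested.

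Members had a median of 6 terms (quartiles 5 to 9), against 5 (quartiles 4 to 7) for the others. Terms that the rule did not use had a median of 5 per member. At least 20 terms were listed for 5 members (3.16%) and 46 others (0.691%), and counting only terms that the rule did not use, for 3 members (1.90%). The highest number among members was 48, for comp59269_c0_seq1_9, a histone deacetylase annotated with tau protein binding and androgen receptor signaling.

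**Figure D5:**
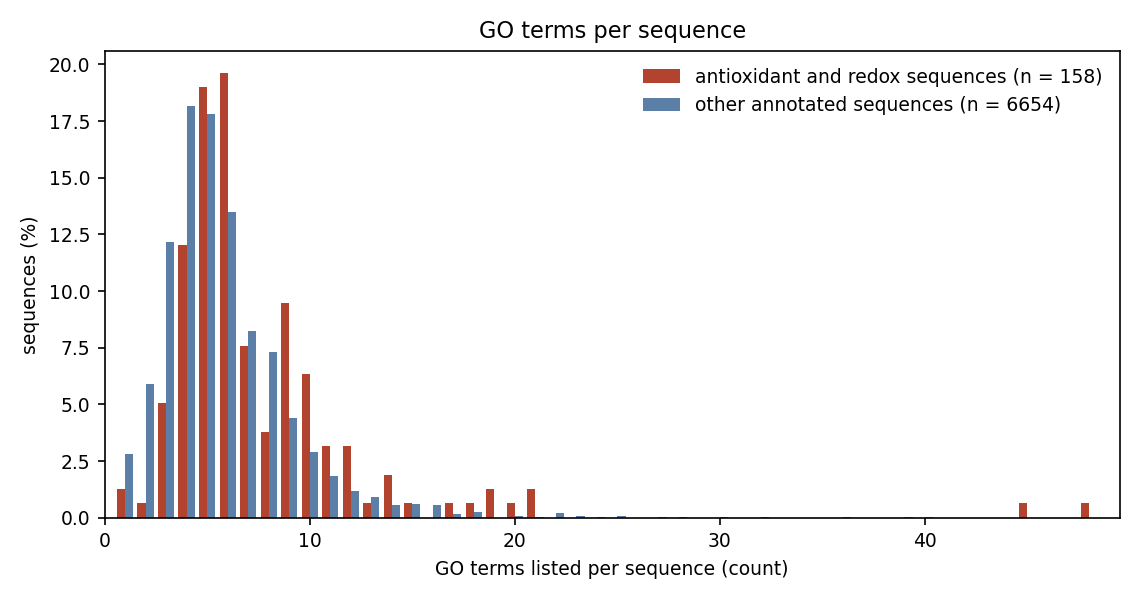
Share of sequences in percent (vertical axis) by the number of GO terms listed per sequence (horizontal axis), with paired bars for the antioxidant and redox sequences and the other annotated sequences. The medians were 6 terms for the members and 5 for the others, and the longest annotation of a member held 48.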

How the data were processed

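RNA from 7 libraries was sequenced. Per the methods of the study, the authors cleaned the reads, used Trinity to join them into contigs and took open reading frames from GetORF. Blastp matches to known proteins then gave the GO terms, through GoPipe. The deposited table is text of 39529 lines and 4 columns: sequence name, GO identifier, term name and domain. It has 0 columns of per-sample values, so the depth behind each sequence is not known from it and no test between conditions was made. Sequences were selected by the 11 words, counted, and compared as shares with all other annotated sequences, with 95% exact Clopper-Pearson intervals, which cover counting error only. The members, word lists and the boundary of 100000 were chosen with earlier results of these data known, and the 17 families and the mitochondrial comparison after the annotation was seen. Matched terms on 3 or more sequences, and enzymes on fewer, were named, with the best annotated sequences of each role. Sequence names were looked up among 30548 RefSeq genes of the species and 0 members matched. The names are labels from the assembly and no sequences were compared, so this does not show whether members belong to known genes. The selection was checked on a made-up table. Alternatives were other word lists, 1 count per component, other boundaries and subsets with a location term. Counting ran in Python 3.11.15 with NumPy 2.4.6, intervals came from SciPy 1.17.1, and plots were drawn in Matplotlib 3.10.9.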

Additional observations from a re-analysis of the deposited data

How the results depend on the processing

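Counts and medians were held to 1.5 times the reported value and shares to its 95% interval. Of 48 alternative values, 44 stayed within these limits and 4 did not. Some of the 44 could not have changed. Peroxidase activity, peroxiredoxin, catalase activity and thioredoxin each brought in 0 sequences alone, so leaving any of them out removed no member. Counting only sequences with a matched molecular function gave 76 members in place of 158, and requiring 2 or more matched terms gave 68. Without one word at a time the count ran between 114, without cell redox homeostasis, and 158. A list with 7 further words gave 171, and 1 count per component gave 148. Among the roles, catalase and hydrogen peroxide held 14 sequences, and 6 by molecular function only, while the roles of redox homeostasis and of response gave no value that way. The mitochondrial share of 25.3% was 18.7% without the sequences that had response or regulation terms only, 31.5% among sequences with a location term, 22.2% above and 27.9% below component number 100000. The plastid share of 14.6% ran between 9.72% and 18.6%. The share above the component boundary was 45.6% with boundaries of 80000 and 200000 as well. No member had a component number between these boundaries, so this alternative could not change the share. No paired analysis was possible because the table has no value per library. The read depth behind each sequence is not in the table, so its effect on the counts was not tested.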

Other observations

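Some sequences close in function lay outside the selection. L-ascorbic acid biosynthetic process was listed for 5 sequences and L-ascorbic acid binding for 2, with 0 members among them. Peptide-methionine-(S)-S-oxide reductase, which repairs oxidised methionine in proteins, was annotated in 6 sequences, again with 0 members. Carotenoid biosynthetic process was listed for 21 sequences and 0 members. Members made up 2.32% of all annotated sequences, so 0 among so few cannot be read as a difference.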
